A study of Arabidopsis thaliana with 10 samples.

Results

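The genes described here are 10 Arabidopsis thaliana loci of nucleotide excision repair and of direct repair by light, chosen as the named genes of these pathways. They are DDB2, RAD4, CSA-1, CHR8, UVH6, UVH1, ERCC1 and UVH3 of excision repair, and the photolyases PHR1 (also called UVR2) and UVR3. Through the transcript accessions of the array, 9 of the 10 were matched to a probe, by 14 probes in all, and UVH3 (AT3G28030), the nuclease that cuts on the 3′ side of a lesion, was not analysed here. The 9 were tested within a fit of 23666 genes, of which 20037 had a locus code. The rest were accessions without a matched locus, each counted as a gene in the shares of all genes below. Whole seedlings of ecotype Columbia-0, wild type and aged 14 days, were given 200 Gy of gamma rays at 50 Gy per h over 4 h, or a mock treatment, and their total RNA was sampled at 24 h. There were 5 runs on different days with independent plants, each with 1 array of mock RNA and 1 of irradiated RNA in a single dye, hence n = 5 in both groups. Seedlings hold a mixture of organs and cell types, and in such samples fewer cells of a type and less RNA per cell cannot be told apart.

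Nucleotide excision repair removes lesions that distort the DNA helix, of which those made by ultraviolet light are the best known. A lesion is found either anywhere in the genome, by DDB2 and RAD4, or where it stalls RNA polymerase, by CHR8 and CSA-1. The helicases of transcription factor TFIIH then open the helix, nucleases cut the strand on both sides, and polymerase and ligase fill the gap. Photolyases instead split ultraviolet dimers in place with the energy of visible light, PHR1 the cyclobutane dimers and UVR3 the 6-4 photoproducts. In plants photolyase genes are known to be switched on by light and ultraviolet-B.

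Values are given as log2 of the processed signal over the 75th percentile of the same array, so that 0 marks that percentile, and changes as gamma minus mock on this scale. Levels of different genes come from different probes and are not set against each other. The share of probes well above background was between 71.7% and 76.6% for the 10 arrays. Both arrays of a run shared 1 slide, with mock always in position 1 and gamma in position 2, so that position and treatment cannot be told apart. Of the marker genes fixed for the tissue, 5 of 5 of green tissue and 6 of 6 of root were well above background on at least 5 arrays, while 0 of 3 of pollen and 0 of 2 of seed storage were. All 5 markers of dividing cells fell, by 0.45 to 0.88 on the log2 scale. Their summed signal, in units of the array's 75th percentile, was 2.53 to 4.12 in mock and 1.20 to 2.52 in gamma arrays. For the root markers, of which 1 fell, it was 3.77 to 5.62 and 2.61 to 4.22. Their part in the values below was not tested.

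Gamma irradiation left no repair gene of the set past the threshold at 24 h. Of the 9 genes measured 0 rose and 0 fell (limma, Benjamini-Hochberg adjusted p under 0.05), beside 4.01% of all genes tested, 1.68% that rose and 2.33% that fell. Among all called genes 41.9% were higher, a minority that became 51.2% with median scaling and with the deposited table, and 75.4% without the block for the run. At an unadjusted p under 0.05 there was 1 of 9, CHR8, a level that 22% of all genes met. The estimates ran from -0.19 for UVR3 to 0.40 for CHR8, 6 below 0 and 3 above, with a median of -0.076 where all genes had -0.015. Every 95% interval lay inside a 2-fold change in either direction, as it did for 94.2% of all genes, and the outermost bounds were a 1.63-fold rise for CHR8 and a 1.45-fold fall for UVR3. All 9 genes were well above background on 10 of 10 arrays, with processed signals of 105 to 3519, the lowest of them those of CHR8. The mock and gamma values overlapped for all 9, and did not overlap for 2.04% of all genes.

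**Figure D1:**
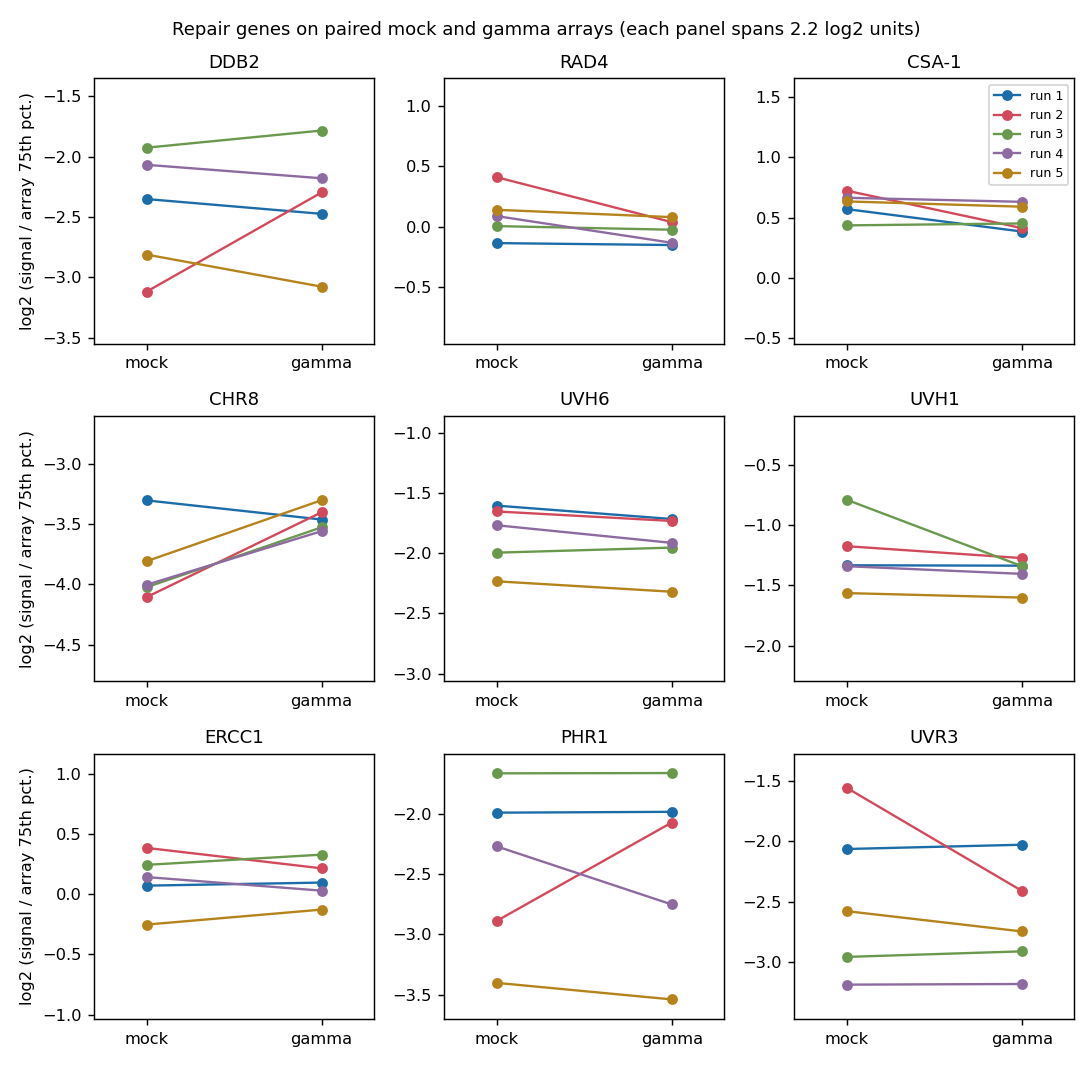
Each panel plots 1 gene, with log2 of the signal over the array's 75th percentile on the y axis and the mock and gamma arrays of each of 5 runs joined by a line. Lines are mostly flat and far apart for PHR1 and UVR3, while 4 of the 5 lines of CHR8 go up, and run 2 is steep for DDB2, PHR1 and UVR3.

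DDB2 (AT5G58760) binds ultraviolet-damaged DNA and brings the CUL4 ubiquitin ligase to it. Its mock values in runs 1 to 5 were -2.35, -3.12, -1.92, -2.07 and -2.81, and its gamma values were -2.47, -2.30, -1.78, -2.18 and -3.08. Both groups covered the same span, and run 2 alone gave a large rise within a pair, of 0.82. The change over the 5 pairs was 0.093 ± 0.16 SE (limma adjusted p = 0.772), higher in 2 runs and lower in 3. Without run 2 it was -0.090.

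RAD4 (AT5G16630), the counterpart of the human lesion sensor XPC, gave mock values of -0.14, 0.41, 0.0053, 0.088 and 0.14 in runs 1 to 5. Its gamma values were -0.15, 0.038, -0.025, -0.13 and 0.080. With the brighter probe the gamma array was the lower of the pair in 5 of 5 runs, by 0.016 to 0.37. This regularity was shown by 23.7% of all genes in one direction or the other. The change was -0.14 ± 0.072 SE (n = 5 pairs, limma adjusted p = 0.311), and its 95% interval went from -0.31 to 0.034. Without run 2 it was -0.082.

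CHR8 (AT2G18760), the plant counterpart of the human Cockayne syndrome protein CSB, is an ATPase that acts where RNA polymerase stalls. Its mock values were -3.30, -4.11, -4.03, -4.00 and -3.81 in runs 1 to 5, and its gamma values were -3.46, -3.40, -3.53, -3.56 and -3.30. The gamma arrays lay close together (SD 0.10) while the mock arrays spread more (SD 0.32), and 4 mock arrays lay below all 5 gamma arrays, with the mock array of run 1 among the highest values of all. The gamma arrays were 1.32-fold higher on average (log2 0.40 ± 0.13 SE, 95% interval 0.094 to 0.70, n = 5 pairs), higher in 4 of 5 runs, with an unadjusted p of 0.0181 and a limma adjusted p of 0.14. In size this change stood above that of 90.6% of all genes.

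Whether CHR8 passed turned on run 1, the 1 run in which it was lower after gamma irradiation, by -0.16. Without run 1 the change was 0.54 (limma adjusted p = 0.0489). In the 3 later-year runs alone it was 0.48 (adjusted p = 0.0366), and in the 2 earlier-year runs, which differed from each other, it was 0.27 (adjusted p = 0.734). Its difference between the years, 0.21 ± 0.26 SE, did not pass (limma interaction, adjusted p = 0.747). The gene has 1 probe, so no second probe bears on the value.

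CSA-1 (AT1G27840), counterpart of the human Cockayne syndrome protein CSA, is the substrate receptor of the CUL4 ligase at stalled polymerase. Its mock values were 0.57, 0.72, 0.44, 0.67 and 0.64 in runs 1 to 5, and its gamma values were 0.39, 0.41, 0.45, 0.63 and 0.59. Its mock arrays had the smallest spread of the set, with an SD of 0.11, at the 6.69th percentile of all genes. Gamma was lower in 4 of 5 runs and the change was -0.11 ± 0.067 SE (limma adjusted p = 0.375), and -0.062 without run 2. Hence both genes of the transcription-coupled branch missed the threshold, with estimates of opposite sign.

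UVH6 (AT1G03190), the counterpart of the human helicase XPD, unwinds DNA around the lesion as a subunit of TFIIH. Its mock values were -1.61, -1.65, -1.996, -1.77 and -2.23 in runs 1 to 5, and its gamma values were -1.72, -1.73, -1.95, -1.91 and -2.32. With the brighter probe the arrays followed their run. Of its sum of squares 95.3% lay between runs and 2.76% between treatments, where the medians of all genes were 80.2% and 4.58%. The second probe, 1.41 times dimmer, did not share this order of arrays (r = -0.38 between the probes over the 10 arrays). The change was -0.076 ± 0.053 SE (limma adjusted p = 0.441), and its interval, from -0.20 to 0.052, was the narrowest of the 9.

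UVH1 (AT5G41150), the counterpart of human XPF, and ERCC1 (AT3G05210) form the nuclease that cuts on the 5′ side of the lesion. UVH1 gave mock values of -1.33, -1.17, -0.79, -1.34 and -1.56 and gamma values of -1.34, -1.27, -1.34, -1.40 and -1.60. With the brighter probe its gamma array was the lower in 5 of 5 runs, by at most 0.10 except in run 3. There the mock array stood above the other 4. The change was -0.15 ± 0.093 SE (n = 5 pairs, limma adjusted p = 0.39), and -0.051 without run 3.

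ERCC1 gave mock values of 0.070, 0.38, 0.24, 0.14 and -0.25 in runs 1 to 5, and gamma values of 0.10, 0.21, 0.33, 0.029 and -0.13. Its 5 differences lay on both sides of 0, between -0.17 and 0.12, and the change was -0.0095 ± 0.065 SE (limma adjusted p = 0.946). The 95% interval of this brighter probe went from -0.17 to 0.15, and that of the second probe from -0.10 to 0.30. Across the 10 arrays the levels of the brighter probes of UVH1 and ERCC1 went together with r = 0.69, as a description of arrays that share runs. Their differences within runs did not (r = -0.30 over 5 runs). Each of these probes was negatively correlated with the second probe of its gene (r = -0.63 for UVH1 and -0.68 for ERCC1).

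PHR1 (AT1G12370) gave mock values of -1.99, -2.89, -1.67, -2.27 and -3.40 in runs 1 to 5, and gamma values of -1.99, -2.07, -1.66, -2.75 and -3.54. Its level differed 3.33-fold between the highest and lowest mock arrays, and the mock SD of 0.70 was above that of most genes, at the 88.9th percentile. Run 3 was highest and run 5 lowest in both groups. Against this spread the change after gamma irradiation was 0.041 ± 0.18 SE (limma adjusted p = 0.912), with differences of 0.0070, 0.82, 0.0023, -0.48 and -0.14 in runs 1 to 5. Without run 2 the change was -0.15 (adjusted p = 0.388).

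UVR3 (AT3G15620) gave mock values of -2.06, -1.56, -2.96, -3.19 and -2.58 and gamma values of -2.03, -2.41, -2.91, -3.18 and -2.75. Its mock arrays differed 3.10-fold (SD 0.66, 87.6th percentile). In runs 1, 3 and 4 mock and gamma differed by at most 0.046, in run 5 gamma was lower by -0.17, and in run 2 by -0.85. The change was -0.19 ± 0.14 SE (limma adjusted p = 0.488), and -0.020 without run 2. The photolyases did not share their order of runs: PHR1 was highest in run 3 and UVR3 in run 2 among the mock arrays, and their levels had r = -0.060 over the 10 arrays.

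**Figure D2:**
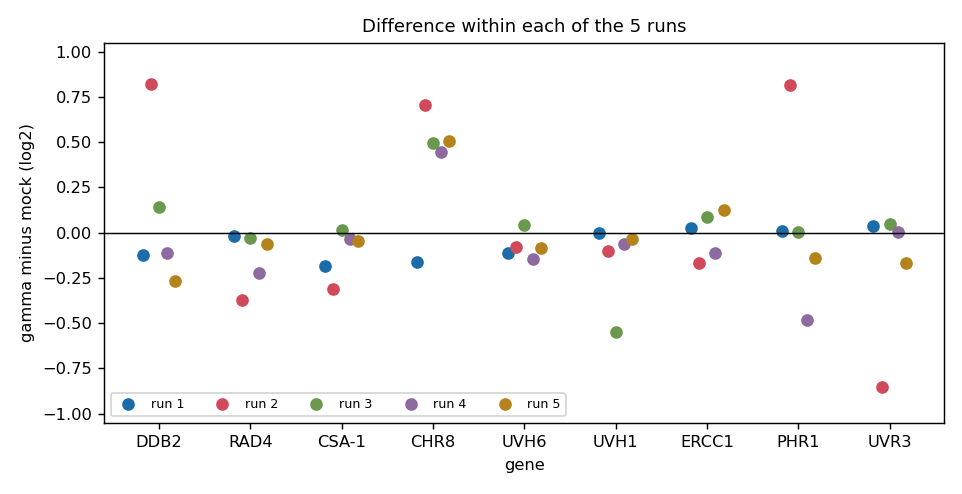
Points give gamma minus mock in log2 units for each gene (x axis) in each of 5 runs. Run 2 holds the outermost points of DDB2, CHR8 and PHR1, between 0.70 and 0.82, and that of UVR3 at -0.85.

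Large differences within a pair came mostly from run 2. Of the 45 differences of the 9 genes, 6 were over 0.5 in size, and 4 of these 6 were in run 2, those of DDB2, CHR8, PHR1 and UVR3. Among the mock arrays run 2 was lowest for DDB2 and CHR8 and highest for UVR3, while run 5 was lowest for PHR1. Among the gamma arrays run 2 was neither lowest nor highest for any of these genes. Run 2 also differed more across all genes, with 23.1% of them over 0.5, against 7.56% to 10.4% in the other runs. DDB2 and PHR1 had r = 0.82 for their levels over the 10 arrays, the highest of the 36 pairs of genes. Their differences over 5 runs had r = 0.90, and those of UVR3 had r of -0.86 with DDB2 and -0.87 with PHR1. Run 2 held the largest difference of all 3 genes and weighs heavily in these r over 5 runs. In run 5 all 3 were lower after gamma irradiation, by -0.27 for DDB2, -0.14 for PHR1 and -0.17 for UVR3. Over all 36 pairs the median r of the levels was 0.041, between -0.67 and 0.82, and 1 pair was above 0.8.

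The 9 listed genes of ultraviolet-B and light signalling, of which 0 passed over all runs, were also read in run 2 alone. This reading was added after its values were seen and rests on 1 pair of arrays. The 9 genes share that pair and are not replicates of it. On that pair 7 of 9 were higher on the gamma array, with a median difference of 0.77, beside 48.0% of all genes and a median of -0.018. Their median lay between -0.31 and 0.12 in the other runs. The transcription factor HYH was higher by 1.94 there, the flavonoid gene CHS by 1.53, the early light-induced gene ELIP1 by 1.24 and the COP1 partner SPA1 by 1.01. HY5, a bZIP factor known to activate light-regulated genes, was higher by 0.35, and the ubiquitin ligase gene COP1 by 0.60. The 2 repressors of the ultraviolet-B receptor differed in sign, RUP2 with 0.77 and RUP1 with -0.79, and the receptor gene UVR8 gave -0.11. In run 2 the mock value was the lowest of the 5 mock arrays for SPA1, COP1, HY5, HYH and UVR8 and the highest for RUP1. The gamma value was the highest of the 5 gamma arrays for HYH, CHS, RUP2 and RUP1 and the lowest for SPA1 and UVR8. The part of the listed genes in the run 2 values of DDB2, PHR1 and UVR3 was not tested.

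The response of the 9 genes was then compared between the earlier-year runs 1 and 2 and the later-year runs 3 to 5, since the titles place them in separate years. PHR1 gave 0.41 in the earlier runs and -0.21 in the later ones, a difference of -0.62 ± 0.28 SE. DDB2 gave 0.35 and -0.079, and UVR3 gave -0.41 and -0.039. Of the earlier runs, run 1 gave 0.0070 for PHR1, -0.12 for DDB2 and 0.035 for UVR3. Run 2 gave 0.82, 0.82 and -0.85 for these genes. CSA-1 gave -0.25 and -0.020, a difference of 0.23 ± 0.10 SE. Of the 9 differences 0 passed (limma interaction, adjusted p of at least 0.512) and 0 had an unadjusted p under 0.05, beside 0.00423% and 10.5% of all genes.

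For 5 genes a second probe gave another reading of the same gene, in the case of UVH1 through a different transcript of it. Here too 0 of 14 probes passed, beside 3.11% of all 31700 probes tested singly. Both probes of CSA-1 were lower after gamma irradiation (-0.11 and -0.062), followed each other over the 10 arrays (r = 0.81) and had the same sign in 5 of 5 runs. The probes of ERCC1 also had the same sign in 5 of 5 runs, although their mean changes, -0.0095 and 0.099, differed in sign. RAD4 gave -0.14 with the brighter probe and -0.17 with the other, which was 36.0 times dimmer, and UVH6 gave -0.076 and -0.026. UVH1 gave -0.15 and -0.098, and the large run 3 difference of its brighter probe, -0.55, was -0.17 with the other. The probes had the same sign in 4 of 5 runs for RAD4 and UVH1 and in 2 of 5 for UVH6. The second probes of RAD4 and UVH1 were each higher after gamma irradiation in 1 run.

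The levels of both probes of a gene did not always follow each other. For UVH1, ERCC1 and UVH6 the levels of both probes were negatively correlated over the 10 arrays, with r of -0.63, -0.68 and -0.38. The order of runs given above for these 3 genes is therefore that of the brighter probe and was not shared by the other. CHR8, DDB2, PHR1 and UVR3 have 1 probe each, so their order of runs has no such check.

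**Figure D3:**
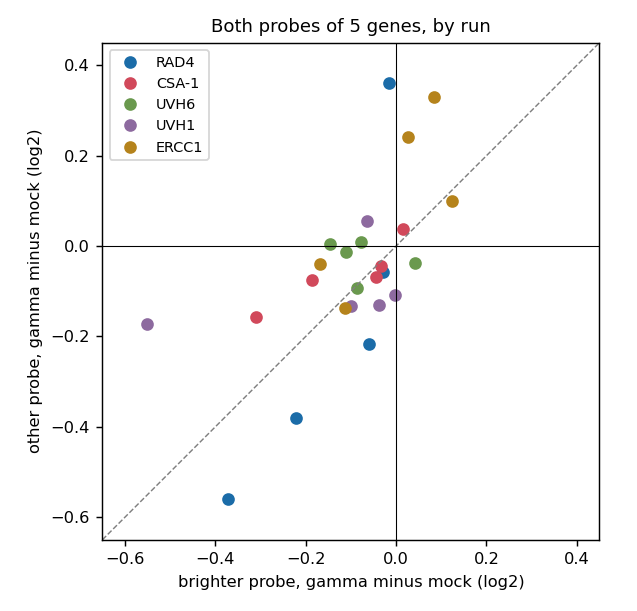
Each point is 1 run of 1 gene, with gamma minus mock in log2 units for the brighter probe on the x axis and for the other probe on the y axis, and the dashed line marks equal values. All 5 points of CSA-1 and of ERCC1 have the same sign on both axes, and RAD4 lies lowest, at -0.37 and -0.56 in run 2.

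Other genes of the pathway were read from 7 lists of 36 genes, all measured. Of the 36, 2 rose and 0 fell, and 9 had an unadjusted p under 0.05, beside 4.01% and 22% of all genes. The 2 were POL2A and CDKD;2. The median change over the lists was 0.0058.

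Of the partners of lesion recognition 0 of 5 passed, and 2 had an unadjusted p under 0.05, beside 22% of all genes. CEN2 (AT4G37010), a centrin that binds RAD4, gave 0.28 ± 0.090 SE (adjusted p = 0.15) and was higher in 5 of 5 runs. Of all genes 23.7% kept 1 direction in all runs. RAD23D, 1 of 4 ubiquitin-binding partners of RAD4, gave 0.12 ± 0.048 SE (adjusted p = 0.227), and RAD23C gave -0.16 ± 0.090 SE. For the CUL4 ligase, which DDB2 and CSA-1 serve as receptors, 0 of 6 passed and 0 had an unadjusted p under 0.05. The adaptors DDB1A and DDB1B gave -0.12 ± 0.051 SE and -0.046 ± 0.063 SE, and DET1, a repressor of light responses bound to DDB1, gave -0.021 ± 0.050 SE. CHR24, a relative of CHR8 with the same family of ATPase, gave -0.14 ± 0.075 SE (adjusted p = 0.321).

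In TFIIH 1 of 7 genes rose, 0 fell and 6 did not pass, where 1.68% of all genes rose and 2.33% fell. CDKD;2 (AT1G66750), a kinase of the TFIIH module that activates cyclin-dependent kinases and phosphorylates RNA polymerase, had mock values of -1.45, -1.61, -1.49, -1.28 and -1.16 in runs 1 to 5. Its gamma values were -1.06, -1.15, -1.09, -1.02 and -0.84, higher by 0.26 to 0.46 in each run. The groups did not overlap, as for 2.04% of all genes. The rise was 0.36 ± 0.054 SE on the log2 scale, or 1.28-fold (limma adjusted p = 0.0245). The call was lost without run 1, 3, 4 or 5 (adjusted p from 0.0693 to 0.111), without the block for the run (0.409) and without a filter (0.06), while the estimate stayed between 0.34 and 0.39 on leaving out a run. Its relative CDKD;1 gave -0.23 ± 0.065 SE (adjusted p = 0.115), and the cyclin partner CYCH;1 gave -0.10 ± 0.065 SE. CDKD;1 was lower in 5 of 5 runs, and 23.7% of all genes kept 1 direction in all runs.

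The 4 listed genes that fill and seal the gap after incision, which also serve DNA replication, were all above 0 in 5 of 5 runs. A single direction in all runs was shown by 23.7% of all genes. POL2A (AT1G08260), the catalytic subunit of DNA polymerase epsilon, had mock values from -2.60 to -1.76 and gamma values from -0.65 to 0.26. Its groups did not overlap, as for 2.04% of all genes. The rise was 2.15 ± 0.13 SE on the log2 scale, or 4.44-fold (limma adjusted p = 0.00141), and it passed on leaving out any 1 run. The sliding clamp genes PCNA1 and PCNA2 gave 0.58 ± 0.14 SE (adjusted p = 0.0806) and 0.40 ± 0.085 SE (0.0585, and 0.0218 to 0.0485 in the 5 alternatives where PCNA2 passed), and the ligase LIG1 gave 0.28 ± 0.095 SE (0.164). The list thus had 1 of 4 past the threshold and 4 of 4 at an unadjusted p under 0.05, beside 4.01% and 22% of all genes. Its median was 0.49, and its 4 genes were chosen with earlier results of these data known.

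Relatives of the photolyases did not pass, 0 of 4 in limma and 0 at an unadjusted p under 0.05. PHR2 gave 0.21 ± 0.097 SE (adjusted p = 0.274, higher in 5 of 5 runs), the cryptochrome CRY3 gave -0.27 ± 0.16 SE (0.374), and the blue light receptor CRY1 gave -0.053 ± 0.060 SE. Of the ultraviolet-B and light signalling genes 0 of 9 passed, with 1 at an unadjusted p under 0.05, beside 22% of all genes. The 1 gene was RUP1 (-0.41 ± 0.11 SE, adjusted p = 0.092, lower in 5 of 5 runs). CHS gave 0.50 ± 0.23 SE (0.267) and COP1, the ubiquitin ligase of light signalling, 0.13 ± 0.11 SE (0.537). Like PHR2 and RUP1, 23.7% of all genes kept 1 direction in all runs.

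**Figure D4:**
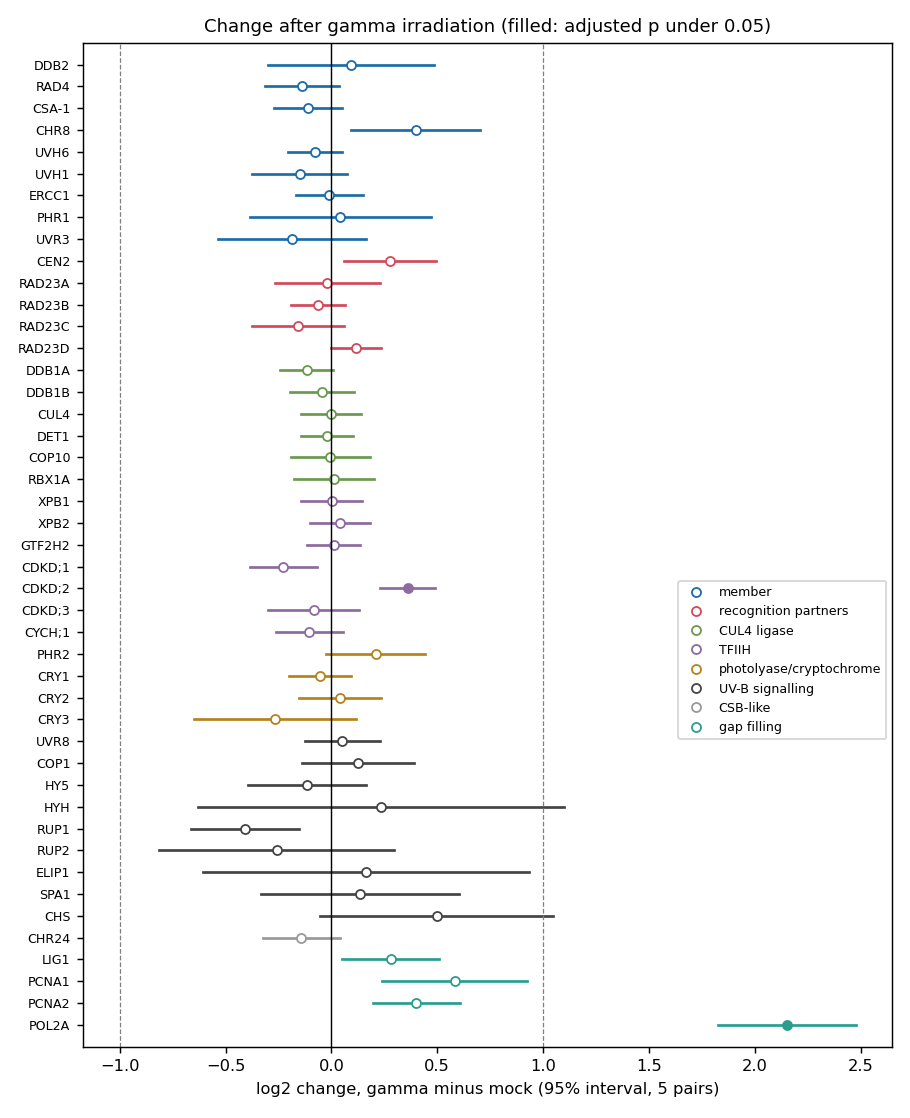
The x axis gives gamma minus mock in log2 units with its 95% interval over 5 pairs for the 9 repair genes and photolyases (top) and the 36 listed genes, and filled circles mark an adjusted p under 0.05. Dashed lines mark a 2-fold change: all 9 intervals of the set lie between them, and POL2A, at 2.15, lies beyond.

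Genes whose levels followed those of the set most closely were sought for the 3 members with the smallest p, by Pearson's r over the 10 arrays. For CHR8 these were SEOR1 (r = 0.88, change 0.34 ± 0.079 SE) and MEE66 (r = 0.87, change 1.96 ± 0.33 SE, limma adjusted p = 0.0339). For RAD4 they were VIP1 (r = 0.96) and VOZ2 (r = 0.96), and for CSA-1 TAF4 and HMG (both r = 0.92), of which 0 of 4 passed. The highest of many correlations over 10 arrays that share runs is large by selection, and the values are a description.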

How the data were processed

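The scanner files hold spot intensity on a linear scale, background-subtracted and detrended by Agilent Feature Extraction 11.0.1.1, per the file headers; the submitters' processing notes name version 9.1. The authors' deposited table holds linear ratios, as set against the scanner values (r of at least 0.997 over probes for each array); its scaling between arrays is not known, and its column medians were 0.969, 0.963, 0.959, 0.974 and 0.9255 for mock and 0.967, 0.960, 0.967, 0.9925 and 0.925 for gamma in runs 1 to 5. It served only as an alternative.

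Control spots and outlier spots were left out, spots of a probe were averaged, and log2 of the processed signal was taken minus each array's 75th percentile. Accessions were named through the RefSeq table of assembly TAIR10.1, where 34348 of 43603 probes matched. The array grid names another release, so no coordinates are given. Genes used their brightest probe, well above background on at least 5 of 10 arrays. The model, fitted with limma 3.58.1 under R 4.3.3, held treatment and run as fixed terms, its tests were of either direction, and p-values were adjusted by Benjamini-Hochberg over 23666 genes. It left 4 residual degrees of freedom, to which the empirical Bayes prior contributed 2.27 more. Runs come from the titles. Deviations of paired arrays correlated at 0.562 to 0.894, and every mock array matched the gamma array of its own run best. The fit was tested on simulated data. The number of arrays limits the precision.

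The members and the lists were chosen with earlier results of these data known. Named were all members, every list gene past the threshold, the 3 of each list with the smallest p and the most alike genes; LIG1 and the run 2 values of the ultraviolet-B list were added after their values were seen. Listed loci without a symbol in the gene table were left out.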

Additional observations from a re-analysis of the deposited data

Results flagged for a closer look

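In groups of 5 values, 1 value far from the others was looked for among the mock arrays, the gamma arrays and the differences of the 9 repair genes and of POL2A and CDKD;2, in 33 sets, of which chance marks about 1 in 20. There were 2 such values, both single runs that lay far below the other 4. The UVH1 difference was -0.55 in run 3, where the next lowest was -0.099. Its second probe, assigned to a different transcript of the gene, gave -0.17 there. The UVR3 difference was -0.85 in run 2, where the next lowest was -0.17, and without that run the change was -0.020. No member differed between earlier and later years past the threshold.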

How the results depend on the processing

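Without the run as a block 142 genes passed in all, 0 of the 9 members and 1 of the 36 listed genes, against 949, 0 and 2 with it, and CDKD;2 was lost. Without a filter 328 genes and 1 listed gene passed. Leaving out 1 run gave 181 to 1021 genes, 0 or 1 member and 1 or 2 listed genes. The 1 member was CHR8, at 0.54 without run 1. With the later-year runs alone 1 member, CHR8, passed at 0.48, and with the earlier-year runs alone 0 genes passed. Median scaling, quantile normalisation, normexp, the deposited table, a filter of all 10 arrays, the mean of probes and a trended robust fit each left 0 members and 917 to 1157 genes. PCNA2 was a further listed gene past the threshold, making 3, in all of these except quantile normalisation and the mean of probes. Of 144 member values under alternatives, 132 kept their sign and side of the threshold, 2 newly passed and 10 changed sign, for genes past no threshold. ERCC1 became 0.013 with median scaling, 0.014 with the deposited table, 0.045 with the mean of probes, 0.030 without run 2, 0.016 without run 4 (from -0.043 to 0.030 on leaving out a run) and 0.032 in the later runs. DDB2 became -0.090 without run 2 (range to 0.18) and -0.079 in the later runs, and PHR1 -0.15 (range to 0.17) and -0.21. The cause of these changes was not tested. The count of genes differing between years, 1 in all, was 15 with median scaling, 40 with normexp, 0 without a filter and 0 to 617 on leaving out a run. The highest, without run 1, leaves 1 earlier-year run. The slide held the same arrays as the run, so it was not fitted as a separate block.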
